A study of Mus musculus with 6 samples.

Results

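The 7 genes described here encode the small GTPases Nras and Hras, the Raf kinases Braf and Araf, the MAP kinase kinases Map2k1 and Map2k2 (MEK1 and MEK2) and the MAP kinase Mapk3 (ERK1). They were taken by exact gene symbol, and all 7 were found among the 38926 symbols of the deposited table. RNA was sequenced from LSK cells, the lineage-negative, Sca1-positive and cKit-positive fraction of bone marrow in which stem cells and early progenitors are found. By their labels, 3 libraries (KO) came from mice with a double knockout of the dopamine receptor genes Drd2 and Drd3 and 3 (WT) from wild-type mice. Both groups were given as untreated C57BL/6 mice of 8 to 12 weeks, and the cells came from femur and tibia. The labels do not say which alleles were used, whether the knockout was limited to a cell type, or whether a library held 1 animal or a pool, so a p-value reflects only how far these libraries spread, which may be technical.

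An active growth factor receptor such as Kit leads to the loading of Ras with GTP, GTP-bound Ras brings a Raf kinase to the membrane, Raf phosphorylates MEK, and MEK phosphorylates ERK. ERK then acts on cytoplasmic kinases and on transcription factors that drive proliferation and differentiation. Mammals keep several genes at each step, and in blood progenitors this cascade relays cytokine signals. The table measures transcripts only, so it says nothing of GTP loading or phosphorylation.

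Whole reads recovered from the table came to 5245255 to 7143454 in the KO-labelled libraries and 5903055 to 6201265 in the WT-labelled ones. The check of the labels failed for Drd3, which was at 1.62, 3.08 and 3.04 FPKM in KO-labelled replicates 1, 2 and 3 and listed at 0 in all 3 labelled WT, while Drd2 was listed at 0 in all 6. Directions are therefore those between libraries as labelled. KO-labelled replicates 1 and 3 had Xist at 1.96 and 2.01 FPKM and no Y-linked Ddx3y, whereas KO replicate 2 and the 3 labelled WT had Ddx3y at 12.5 to 15.1 FPKM and no Xist. The same KO replicates 1 and 3 had the immunoglobulin gene Igkc at 3182 and 1173 FPKM, against at most 4.93 FPKM in the other 4 libraries. The gate's own genes were present in both groups: Kit was at 82.5 to 129 FPKM in the KO-labelled libraries and 105 to 149.6 FPKM in the WT-labelled ones, and Ly6a (Sca1) at 114 to 161 FPKM and 109.8 to 129 FPKM. Of the lineage markers, the T cell gene Cd3e reached 0.238 FPKM and the myeloid gene Itgam 9.18 FPKM in the highest library.

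Of the 7 genes, all of which passed the filter of a mean of at least 1 FPKM over the libraries, 1 passed the test at an adjusted p under 0.05, beside 10.9% of all tested genes. This was Map2k1, 1.36-fold higher in the KO-labelled libraries on the FPKM + 1 scale (95% interval 1.16 to 1.60), and Map2k2, its closest relative, was not called (1.02-fold, 0.875 to 1.19). Both Ras genes, both Raf genes and Mapk3 were not called either. The larger share of Map2k1 in the MEK transcripts of the KO-labelled libraries comes from the same Map2k1 values and is no separate result.

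The table gives 1 value per gene. The annotation (GENCODE M21, build GRCm38) lists 4 to 10 transcripts for each of these genes, so which splice forms were used cannot be read here, and use is described between the genes of a step. FPKM is a level per kilobase of gene length, which allows genes to be set side by side. In the WT-labelled libraries the order of the levels was Map2k2, Mapk3, Map2k1, Nras, Araf, Hras and Braf. The WT ranges of neighbours in this order did not overlap in any of the 6 steps, although Map2k1 and Nras lay close (lowest Map2k1 library 22.1 FPKM, highest Nras library 20.9 FPKM). The lengths implied for Nras, Map2k2 and Mapk3 (4514, 3722 and 2163 bases) were below their annotated exon lengths (5331, 5663 and 2257), so the places of these genes rest on the lengths the authors used. The highest, Map2k2, was 25.5 times the lowest, Braf. Among the 11371 tested genes, Map2k2 stood at percentile 81.8 of WT levels, Nras at 66.9 and Braf at 8.92.

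Nras (chromosome 3, 103058285 to 103067914, build GRCm38, plus strand) is a membrane-bound Ras GTPase often mutated in myeloid leukaemia. It was at 19.2, 18.9 and 18.2 FPKM in KO-labelled replicates 1 to 3 and at 19.9, 20.9 and 20.1 FPKM in the WT-labelled ones. The groups did not overlap, with every KO-labelled library below every WT-labelled library, but the difference was small and did not pass the test (log2 difference -0.11 ± 0.10 SE, limma adjusted p = 0.544). Of all tested genes, 32.8% had groups that did not overlap, 16.2% with higher and 16.6% with lower values in the KO-labelled libraries. Of the 7 members 2 did, Map2k1 higher and Nras lower. Nras was among the steadiest members, with a coefficient of variation of 2.78% over the KO-labelled libraries and 2.79% over the WT-labelled ones, below the 4.29% and 4.23% that counting alone would give for its 446 to 626 reads.

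Hras (chromosome 7, 141189105 to 141194005, minus strand) is the Ras GTPase that shares most of its sequence with Nras and differs chiefly in its tail. It was at 12.0, 11.5 and 8.34 FPKM in the KO-labelled libraries and at 10.4, 9.87 and 10.5 FPKM in the WT-labelled ones. The KO libraries lay on both sides of the WT range, replicate 3 below it and replicates 1 and 2 above it. The difference was 0.03 ± 0.15 SE on the log2 scale (limma adjusted p = 0.914; 95% interval of the fold 0.806 to 1.30). The spread of 18.7% among the KO-labelled libraries was wider than the 6.42% expected from counting 169 to 323 reads, while the 3.14% among the WT-labelled ones was not. Nras made up 61.6, 62.2 and 68.6% of the summed Nras and Hras level in the KO-labelled libraries and 65.7, 68.0 and 65.7% in the WT-labelled ones. This share overlapped between the groups (64.1 ± 3.87% and 66.5 ± 1.30%, SD, n = 3 each).

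**Figure D1:**
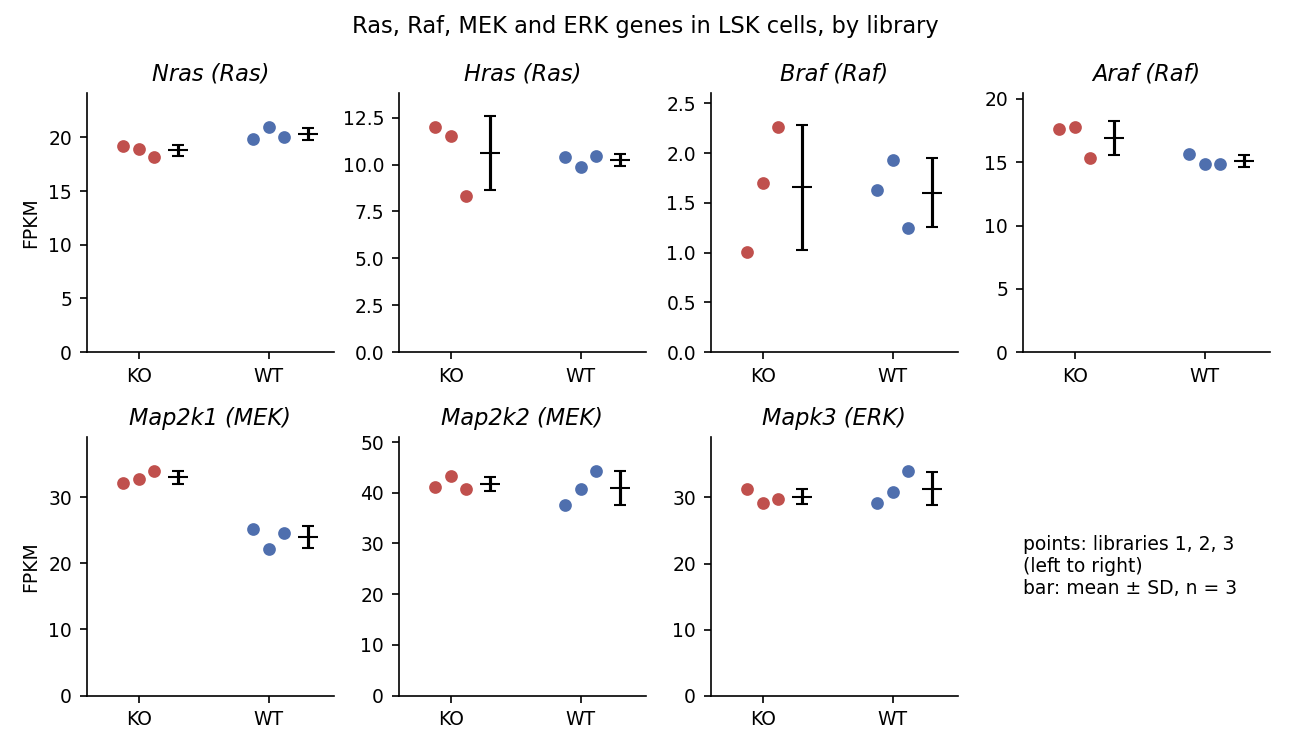
FPKM (vertical axes, each from 0) of the 7 genes in the 3 KO-labelled libraries (red) and the 3 labelled WT (blue), points for replicates 1 to 3 from left to right and bars for mean ± SD. The KO-labelled libraries sit at 32.1 to 34.0 FPKM for Map2k1, above the 22.1 to 25.2 FPKM of the WT-labelled ones; apart from Nras, where they lie just below, the groups overlap in the other panels.

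Araf (chromosome X, 20797814 to 20860519, plus strand) is a Raf kinase with weak activity of its own. It was at 17.6, 17.8 and 15.4 FPKM in the KO-labelled libraries and at 15.7, 14.9 and 14.9 FPKM in the WT-labelled ones. KO replicate 3 lay inside the WT range and KO replicates 1 and 2 above it (0.15 ± 0.11 SE on the log2 scale, limma adjusted p = 0.431).

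Braf (chromosome 6, 39603237 to 39725463, minus strand), the most active Raf kinase and a frequent oncogene, was the lowest member. It was at 1.01, 1.70 and 2.26 FPKM in the KO-labelled libraries and at 1.63, 1.93 and 1.25 FPKM in the WT-labelled ones. The KO values spanned the whole WT range, and the difference was 0.01 ± 0.24 SE on the log2 scale (limma adjusted p = 0.984). This was the least precise comparison of the 7, with a 95% interval of 0.693 to 1.46 for the fold on the FPKM + 1 scale, which understates changes in so low a gene. With a pseudocount of 0.1 the SE was 0.38, so changes in Braf itself beyond that interval may also have gone undetected. Its 101 to 170 reads per library put counting error at 8.55% in the KO-labelled libraries and 8.70% in the WT-labelled ones, below the observed 37.8% and 21.4%. Braf made up 5.41, 8.74 and 12.8% of the summed Braf and Araf level in the KO-labelled libraries and 9.42, 11.5 and 7.75% in the WT-labelled ones, which overlapped. An exon length of 13862 bases lies behind its FPKM. The longest coding transcript in the annotation has 9728 bases for Braf and 2854 for Araf, and with those lengths the Braf share became 5.81 ± 2.48% in the KO-labelled libraries and 6.17 ± 1.26% in the WT-labelled ones (chosen after the data were seen). Without strand in the kit, reads in the 146 exonic bases that Braf shares with Ndufb2 on the other strand cannot be assigned. The same holds for the 9 bases that Araf shares with Syn1.

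Map2k1 (chromosome 9, 64185770 to 64253631, minus strand) encodes MEK1, the dual-specificity kinase that activates ERK and is also the MEK on which ERK feedback acts. It was at 32.1, 32.8 and 34.0 FPKM in the KO-labelled libraries and at 25.2, 22.1 and 24.5 FPKM in the WT-labelled ones. Every KO-labelled library was above every WT-labelled library. The means were 33.0 ± 0.935 and 24.0 ± 1.60 FPKM (SD, n = 3 each), from 625 to 786 and 440 to 533 reads. The log2 difference was 0.45 ± 0.10 SE (limma adjusted p = 0.0244). Of 11371 tested genes 10.9% were called (5.48% on the higher side, 5.43% on the lower), so 1 call among 7 genes is near the background. The absolute difference of Map2k1 was larger than that of 78.4% of the tested genes. Map2k1 missed the threshold without WT replicate 1, 2 or 3 (adjusted p = 0.0618, 0.116 and 0.0782) and without KO replicate 2 (0.0522), with no variance trend (0.0525) and with Y-linked transcripts as a covariate (0.136). The log2 difference itself stayed at 0.39 to 0.48 over the 18 alternatives tried (adjusted p 0.0172 to 0.136). KO replicate 2, the KO-labelled library with Y-linked transcripts, differed from the 3 labelled WT by 0.44 on the log2 scale (adjusted p = 0.104); with 1 library on the KO side, this fit takes its spread from the WT-labelled libraries and assumes that the lone library varies like them.

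Map2k2 (chromosome 10, 81105915 to 81133975, plus strand) encodes MEK2, which phosphorylates the same ERK kinases. It was at 41.1, 43.2 and 40.8 FPKM in the KO-labelled libraries and at 37.6, 40.7 and 44.3 FPKM in the WT-labelled ones. All 3 KO values fell inside the WT range (0.03 ± 0.10 SE on the log2 scale, limma adjusted p = 0.873). Map2k1 made up 43.9, 43.1 and 45.4% of the summed Map2k1 and Map2k2 level in the KO-labelled libraries, against 40.1, 35.3 and 35.6% in the WT-labelled ones. These shares did not overlap and differed by 7.14 percentage points in their means (44.1 ± 1.18% and 37.0 ± 2.69%, SD, n = 3 each). With Map2k2 little changed, this restates the difference in Map2k1. The summed MEK level was 73.2, 76.0 and 74.8 FPKM in the KO-labelled libraries, against 62.8, 62.8 and 68.9 FPKM in the WT-labelled ones. Which of the genes was the higher depends on length: the FPKM of Map2k2 implies 3722 bases, while its annotated exons cover 5663. With annotated exons the Map2k1 share was 54.6 ± 1.18% in the KO-labelled libraries and 47.2 ± 2.86% in the WT-labelled ones, and the groups differed by 7.43 points.

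The promoters of the MEK pair are shown because Map2k1 was called and Map2k2 was not; the difference between their changes was not tested. Each runs from 250 bases before to 50 after the RefSeq start (build GRCm38.p6, chr9:64253556-64253855, minus strand, for Map2k1 and chr10:81105665-81105964, plus strand, for Map2k2), read 5′ to 3′ along the gene. Capitals mark matches on either strand to the GC box GGGCGG, the CCAAT box CCAAT, the half-site TGACG of the cyclic AMP response element and the AP-1 site TGACTCA.
Map2k1: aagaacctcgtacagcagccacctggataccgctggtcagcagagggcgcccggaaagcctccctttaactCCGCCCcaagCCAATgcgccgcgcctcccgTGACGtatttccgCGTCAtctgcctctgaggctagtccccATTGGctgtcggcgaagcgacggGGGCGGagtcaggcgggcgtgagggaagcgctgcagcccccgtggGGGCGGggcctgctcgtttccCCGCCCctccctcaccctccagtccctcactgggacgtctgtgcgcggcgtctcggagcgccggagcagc
Map2k2: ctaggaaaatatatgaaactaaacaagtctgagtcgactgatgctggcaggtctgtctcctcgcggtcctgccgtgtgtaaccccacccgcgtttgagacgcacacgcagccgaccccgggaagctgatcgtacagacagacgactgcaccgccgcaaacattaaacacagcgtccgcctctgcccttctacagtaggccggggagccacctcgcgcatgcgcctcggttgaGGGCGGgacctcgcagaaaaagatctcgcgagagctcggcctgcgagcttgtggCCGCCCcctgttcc
The Map2k1 window held 4 GC boxes, 2 CCAAT boxes and 2 TGACG half-sites, and the Map2k2 window held 2 GC boxes alone. Members that were not called held these motifs too: TGACG matched 5 times in the Braf window and 2 times in that of Hras, CCAAT 3 times in that of Araf, and the GC box 3 times each in those of Nras and Hras. The AP-1 site was in none of the windows. Of 32851 mouse promoter windows of 300 bases, 35.7% held the GC box, 37.4% the CCAAT box, 20.8% TGACG and 5.2% the AP-1 site. A match describes the letters and shows no binding. Promoters were found for 6 of the 7 members.

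**Figure D2:**
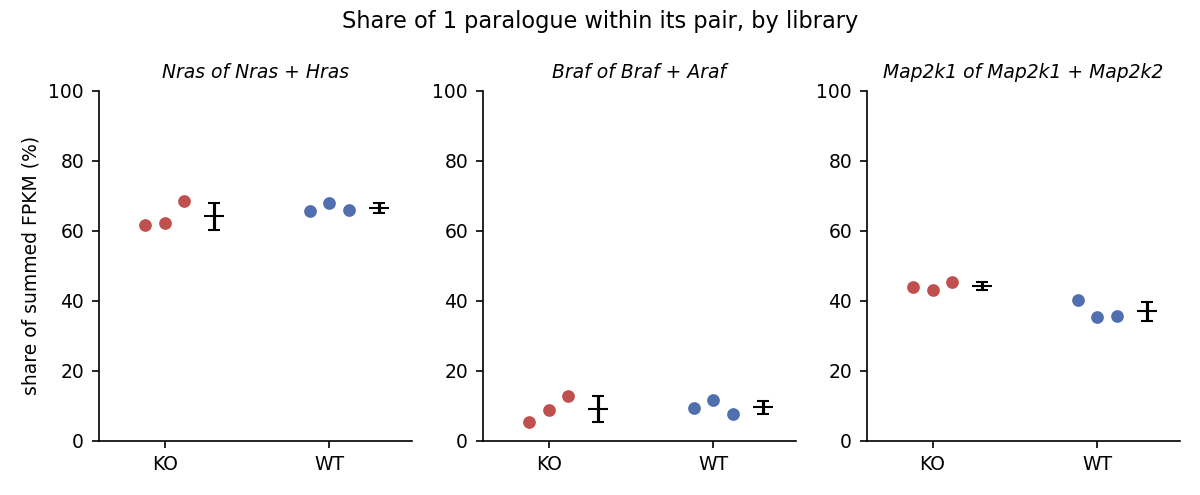
Share (%) of 1 gene in the summed FPKM of its pair, for Nras in Nras + Hras, Braf in Braf + Araf and Map2k1 in Map2k1 + Map2k2, in the KO-labelled (red) and WT-labelled (blue) libraries, with mean ± SD over 3 libraries. The Map2k1 share is 43.1 to 45.4% in the KO-labelled libraries and 35.3 to 40.1% in the WT-labelled ones, while the other shares overlap.

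Mapk3 (chromosome 7, 126759601 to 126765819, plus strand) encodes ERK1, the terminal kinase of the cascade. It was at 31.3, 29.2 and 29.8 FPKM in the KO-labelled libraries and at 29.1, 30.8 and 34.0 FPKM in the WT-labelled ones. The KO values lay inside the WT range (-0.05 ± 0.10 SE on the log2 scale, limma adjusted p = 0.791; 95% interval of the fold 0.822 to 1.13). With Map2k1 higher, the order of the means in the KO-labelled libraries placed Map2k1 ahead of Mapk3, and the other 5 genes kept their places. The summed levels of the Ras pair were 31.2, 30.5 and 26.6 FPKM in the KO-labelled libraries and 30.3, 30.8 and 30.5 FPKM in the WT-labelled ones. Those of the Raf pair were 18.7, 19.5 and 17.6 FPKM and 17.3, 16.8 and 16.1 FPKM.

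**Figure D3:**
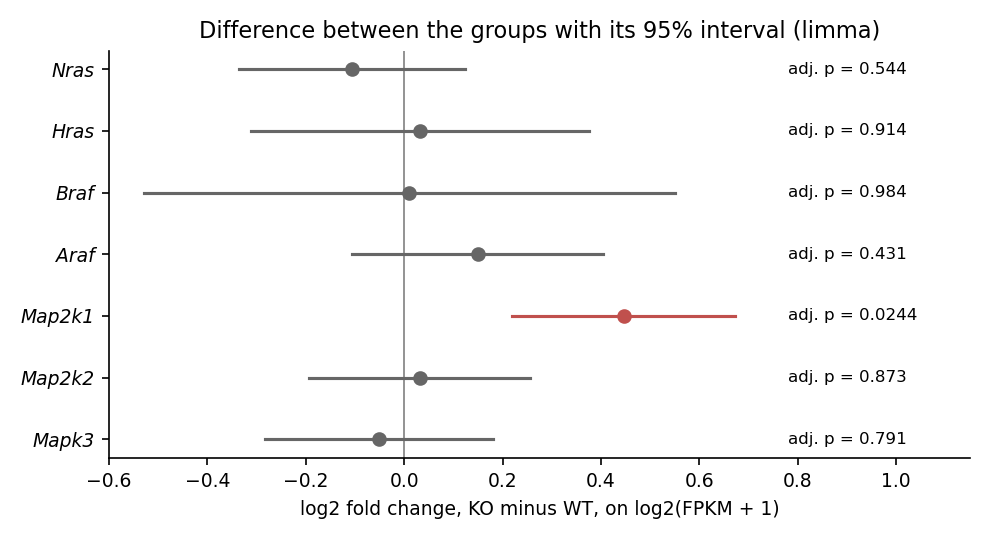
Log2 fold change, KO minus WT, on the log2(FPKM + 1) scale with its 95% interval from limma for the 7 genes, with adjusted p over all 11371 genes at the right. The interval of Map2k1 (0.22 to 0.67) lies above 0, and those of the other 6 genes include 0.

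Around these genes, 7 lists covered the rest of the pathway, with 137 genes, of which 113 were tested. Of those, 2 rose and 9 fell in the KO-labelled libraries (9.73% called, beside 10.9% of all genes). None of 12 Ras activators and adaptors was called (median log2 difference -0.25, beside -0.002 over all genes tested). In this list the adaptor Grb2, which couples receptors to a Ras exchange factor, was at 51.3 ± 4.0 FPKM in the KO-labelled libraries and 56.4 ± 1.6 FPKM in the WT-labelled ones. The next list held GTPase-activating proteins, which switch Ras off, and the Spred proteins, inhibitors of the pathway that bind one of them. Of its 9 tested genes, Rasal1 fell to 0.529 ± 0.0855 FPKM, against 2.73 ± 1.03 FPKM in the WT-labelled libraries (adjusted p = 0.0132), and Rasa4 to 4.79 ± 0.894 FPKM, against 8.55 ± 0.359 FPKM (0.0197). Rasal1 was near the floor in the KO-labelled libraries (0.627, 0.491 and 0.469 FPKM in replicates 1 to 3). It passed the filter of a mean of 1 FPKM only through the WT-labelled libraries, where it was high. The list median was -0.07.

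Ras proteins are farnesylated, trimmed, methylated and palmitoylated before they reach the membrane. Of 14 genes of this processing, 2 rose and 1 fell (median 0.05). The farnesyltransferase subunit Fnta was at 127 ± 8.80 FPKM in the KO-labelled libraries and 95.6 ± 3.42 FPKM in the WT-labelled ones (adjusted p = 0.0239), and the palmitoyltransferase partner Golga7 at 81.7 ± 1.05 and 64.2 ± 1.98 FPKM (0.0334). The carboxyl methyltransferase Icmt fell to 2.47 ± 0.785 FPKM, against 6.07 ± 0.609 FPKM in the WT-labelled libraries (adjusted p = 0.0137). Of 28 scaffolds, cofactors and inhibitors 2 fell (median -0.06). These were the scaffold Iqgap1, at 33.7 ± 1.24 and 51.7 ± 5.99 FPKM in the KO- and WT-labelled libraries (adjusted p = 0.0112), and the Raf kinase inhibitor protein gene Pebp1, at 234 ± 21.9 and 314 ± 21.1 FPKM (0.0291).

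None of 20 genes of the other MAP kinase modules was called (median -0.11). Among the other MAP kinase kinases there, Map2k3, which acts on p38, had levels of 74.9, 72.7 and 65.2 FPKM in the KO-labelled libraries and 64.0, 62.8 and 60.8 FPKM in the WT-labelled ones, above Map2k2 in every library, and did not pass the test (adjusted p = 0.256). Map2k5, of the ERK5 module, was at 25.9 ± 2.71 and 28.0 ± 1.58 FPKM, and Map2k4, of the JNK module, at 18.2 ± 1.84 and 15.2 ± 2.58 FPKM. Of 14 kinases and transcription factors downstream of ERK 2 fell (median -0.11). These were the kinase Mknk2, at 53.3 ± 1.27 and 71.7 ± 2.02 FPKM (limma adjusted p = 0.0171), and the ETS factor Etv6, at 39.4 ± 6.13 and 54.9 ± 3.31 FPKM (0.0388).

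Of 16 tested genes that ERK signalling induces, 2 fell (median -0.05). The immediate early gene Ier3 was at 119, 117 and 115 FPKM in the KO-labelled libraries, against 237, 237 and 240.3 FPKM in the WT-labelled ones (log2 difference -1.02 ± 0.08 SE, limma adjusted p = 0.000204), and Fosb at 35.4 ± 14.2 and 74.9 ± 2.87 FPKM (0.0235). Dusp6, the ERK phosphatase induced by ERK itself, was at 57.3 ± 1.78 and 58.8 ± 3.64 FPKM and was not called (-0.04, adjusted p = 0.842). Other genes of the list went the other way. The groups did not overlap for 3 genes higher in the KO-labelled libraries (Egr1, Spry1 and Spry2, none called). They did not overlap for 4 lower ones (Ier3, Fosb, Dusp5 and Phlda1). Of all tested genes, 16.2% and 16.6% did so. Egr1 was at 316 ± 44.0 and 231 ± 49.5 FPKM. Of the 11 calls around the members, the one of Ier3 held under all 18 alternatives. The other 10 were all lost without WT replicate 1 (adjusted p 0.0504 to 0.134) and without WT replicate 2 (0.0514 to 0.141), and 7 were lost without WT replicate 3 (0.0711 to 0.128). Without KO replicate 1, 4 were lost (0.0532 to 0.105), and without KO replicate 2, 4 (0.0534 to 0.101). With Y-linked transcripts as a covariate the same 10 were lost (0.0519 to 0.262), and without KO replicates 1 and 3, which lack those transcripts, 6 (0.063 to 0.185). All 10 kept their direction in both fits, where KO replicate 2 alone sets the difference. With the covariate the log2 differences of Rasal1, Rasa4, Fnta, Iqgap1 and Etv6 were larger in size (-0.94 for Rasa4, beside -0.73) and those of the other 5 smaller (-0.28 for Pebp1, beside -0.43).

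**Figure D4:**
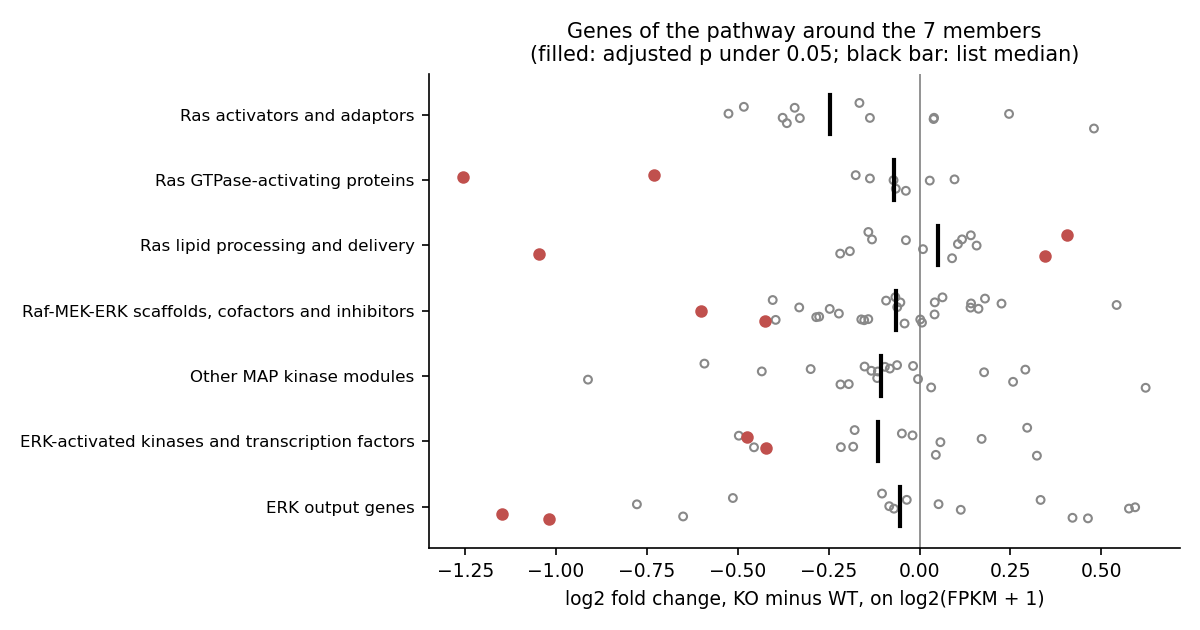
Log2 fold change, KO minus WT, on the log2(FPKM + 1) scale for the 113 tested genes of 7 pathway lists, with filled points for the 11 genes called and black bars for list medians. The 2 genes called higher, Fnta and Golga7, are in the lipid processing list, and the list medians lie between -0.25 and 0.05.

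Markers of cell types and of the cell cycle also differed between the groups. Counts in these lists stand beside 5.48% of all tested genes called higher and 5.43% called lower in the KO-labelled libraries, and a single call in a short list is no result about that list. In bulk samples fewer cells of a type cannot be told from less RNA per cell. Of 6 genes that define or divide the LSK gate, Slamf1, a stem cell marker, rose (9.91 ± 2.20 FPKM in the KO-labelled libraries and 1.73 ± 0.708 FPKM in the WT-labelled ones). The progenitor markers Flt3 and Cd34 fell (34.9 ± 3.45 and 82.7 ± 9.76 FPKM for Flt3). Cd48 was not called (180 ± 35.8 and 173 ± 22.7 FPKM, limma adjusted p = 0.878), and neither were Kit and Ly6a. Of 20 S phase genes 8 fell, with a summed level of 1330 to 1607 FPKM in the KO-labelled libraries and 1831 to 1972 FPKM in the WT-labelled ones. Of 20 G2 and M phase genes 13 fell, with sums of 476 to 581 and 675 to 808 FPKM. Of 12 erythroid genes 8 rose, with sums of 2691 to 4654 and 1602 to 2081 FPKM. Of 8 mast cell and basophil genes 4 rose, with overlapping sums of 182 to 271 and 143 to 185 FPKM. These 4 were Cma1, Tpsb2, Hdc and Gata2, the highest of the 8 and so the largest part of these sums (127 and 90.2 FPKM). Cma1 and Tpsb2 averaged 0.149 and 0 FPKM in the WT-labelled libraries and passed the filter only through the KO-labelled ones. Cpa3, Ms4a2, Fcer1a and Mcpt8 were not called, and Mcpt8 averaged lower in the KO-labelled libraries. Of 11 neutrophil genes none was called (sums of 599.9 to 1348 and 891 to 952 FPKM), and of 7 B and plasma cell genes none was (163 to 3618 and 348 to 369.5 FPKM). Of 5 macrophage and dendritic genes 1 fell (56.9 to 174 and 56.4 to 70.4 FPKM), of 4 T and NK cell genes 1 (191 to 299 and 356 to 420 FPKM), and of 6 endothelial and stromal genes 2 (26.1 to 29.96 and 42.0 to 46.6 FPKM). Of 6 lineage-gate genes 1 rose (47.1 to 56.4 and 49.8 to 58.8 FPKM). In these lists Cd3g and Ncr1 were at 0 in all 6 libraries. The part of these differences in the level of Map2k1 was not tested.

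Over the 6 libraries, the genes whose log2(FPKM + 1) followed that of Map2k1 most closely were Efna1, an ephrin ligand (Pearson's r = 0.996), Nmnat1, an enzyme of NAD synthesis (0.995), and Nkx2-3, a homeobox factor (0.994). These values, like those of the other members below, describe 6 libraries in 2 groups. They were picked as the highest among the tested genes, so their size alone is no result. Nkx2-3 was at 242, 242 and 249 FPKM in the KO-labelled libraries, against 125.6, 103 and 123 FPKM in the WT-labelled ones. Efna1 was at 4.62, 4.90 and 5.24 FPKM, against 1.23, 0.186 and 1.05 FPKM. It averaged 0.820 FPKM in the WT-labelled libraries and passed the filter only through the KO-labelled ones. Its call was lost with Y-linked transcripts as a covariate, where KO replicate 2 alone sets the difference (log2 difference 1.75, as without the covariate). Nmnat1 did not pass the test (adjusted p = 0.0992). For the members that were not called, the closest gene was Havcr2 for Nras (r = 0.997), Mrpl23 for Hras (0.993), BC068281 for Braf (0.985), Dtd2 for Araf (0.992), Zfp277 for Map2k2 (0.972) and Rsph1 for Mapk3 (0.980).

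**Figure D5:**
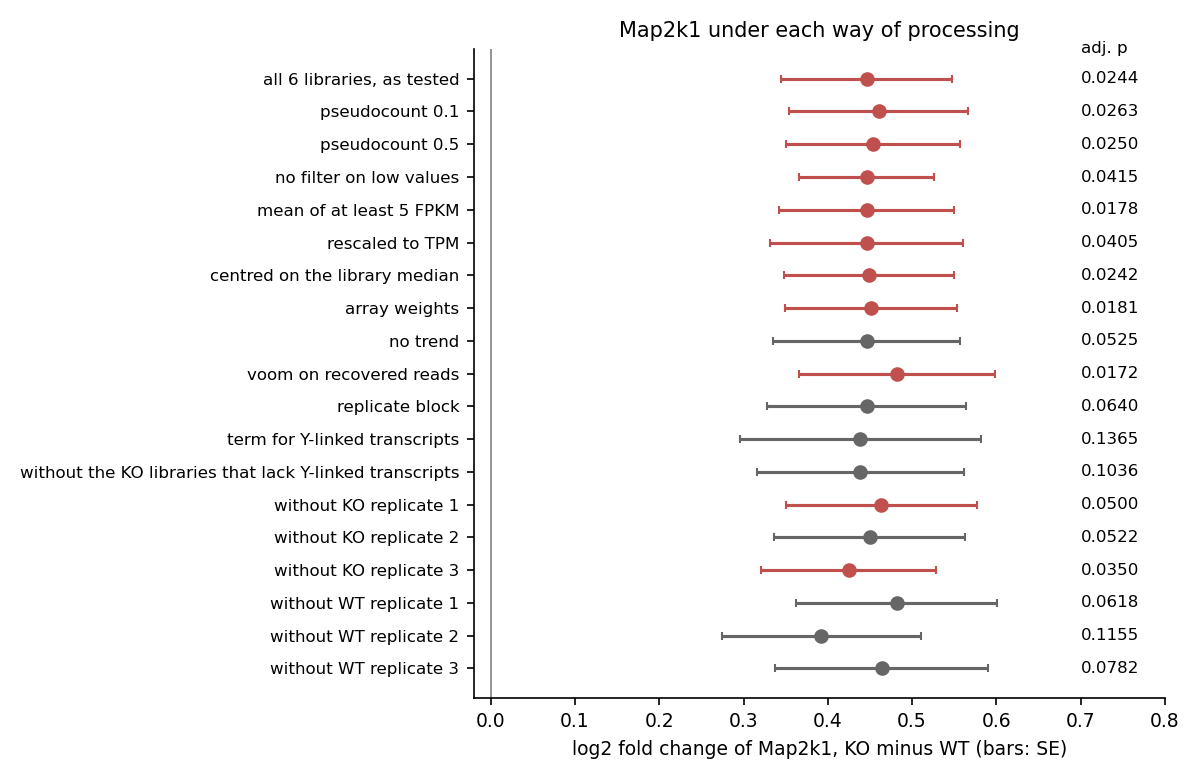
Log2 fold change of Map2k1, KO minus WT, with SE bars, in the comparison of all 6 libraries and under 18 alternatives, with adjusted p at the right (red under 0.05, grey above). The difference stays between 0.39 and 0.48 while the adjusted p runs from 0.0172 to 0.136.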

How the data were processed

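Gene expression in LSK cells was measured by RNA sequencing. Per the labels' protocols, the SMART-Seq v4 kit gave cDNA and Nextera XT the libraries; neither marks strand. The deposited values are FPKM, as the authors scaled them, with 1 column per library. The submitters' processing notes list TopHat2 (2.1.1), bcl2fastq (2.19.1.403), DESeq2 (1.18.1), HTSeq (0.6.1) and mm10, with no roles. The sources used here name no annotation.

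Within a gene, values of different libraries stood in whole-number ratio once scaled by a divisor per library (17183 of the 17183 genes with values in several libraries, tolerance 1e-12). This gave reads, which are lower bounds where a common factor is missing. Among the 7 members the implied gene length equalled the GENCODE M21 exon length in Hras, Braf, Araf and Map2k1. For Nras, Map2k2 and Mapk3 it was set by a search for the smallest read factor giving a whole length, then rounded. Counting errors cover counting alone.

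The main test was limma 3.58.1 (R 4.3.3), with eBayes trend, run on log2(FPKM + 1) over the 11371 genes averaging 1 FPKM or more, two-sided, Benjamini-Hochberg adjusted over all, called under 0.05. The pseudocount of 1 shrinks the fold of low genes. The script was tested on simulated reads. Shares within a pair were not tested. The members, 7 pathway lists and 11 marker lists were chosen with earlier results of these data known. Named are all members, up to 4 called genes per pathway list, the genes whose pattern over the libraries was most like a member's, and overlapping genes. Grb2, Dusp5, Dusp6, Egr1, Phlda1, Spry1, Spry2, Map2k3, Map2k4, Map2k5 and the marker genes are examples outside this rule. Promoters are RefSeq's (GRCm38.p6). Some related genes are not reported here. Preparation and plots used Python 3.11.15, numpy 2.4.6, pandas 2.3.3 and matplotlib 3.10.9.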

Additional observations from a re-analysis of the deposited data

How the results depend on the processing

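The comparison of all 6 libraries called 1240 genes and 1 of the 7 members. The call of Map2k1 was kept with pseudocounts of 0.1 and 0.5, no filter, a mean of at least 5 FPKM, TPM, median centring, array weights and voom on recovered reads. The number of members called was 0 with no variance trend (adjusted p of Map2k1 0.0525). It was also 0 when Y-linked transcripts were a covariate (0.136) or when KO replicates 1 and 3, which lack them, were left out (0.104); in both, KO replicate 2 alone sets the difference. Leaving out 1 replicate gave 0 to 1 members called and 370 to 1598 genes (824 when KO replicate 1 was left out, and 531, 370 and 509 when WT replicate 1, 2 or 3 was). The number of genes called was 588 with no filter, 373 with that covariate and 514 without KO replicates 1 and 3. Array weights and voom gave 1628 and 1566. As a paired fit, the replicate block called 805 genes and 0 members (adjusted p of Map2k1 0.064). The replicate numbers share only a number: deviations of same-numbered libraries correlated at -0.03, 0.05 and -0.12, so no pairing was assumed. Directions of members not called turned in some settings. Braf was at 0.01 on the log2 scale, and at -0.0016 with a pseudocount of 0.1, -0.073 with array weights and -0.020 with voom. Leaving out 1 replicate gave -0.15 to 0.20 for Braf, -0.055 to 0.18 for Hras, -0.025 to 0.090 for Map2k2 and -0.10 to 0.0092 for Mapk3. The difference in the Map2k1 share stayed at 6.12 to 8.70 percentage points over 10 alternatives, of which 2 were chosen after the data were seen. Of the 11 called pathway genes, 5 lost their call with no filter, 6 with no variance trend, 5 with the replicate block and 1 with TPM.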
